A study of Mus musculus with 12 samples.

Results

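Rearrangements shared by the whole splenic CD8 T-cell pool were examined as the productive TCRβ nucleotide sequences that had at least 1 template in each of the CD27lo CX3CR1lo, CD27hi CX3CR1lo and CX3CR1hi libraries of the same experiment. Sequences with 10 or more templates in both the CX3CR1hi library and the CD8 tumor-infiltrating lymphocyte (TIL) library were left out by the same rule. The members numbered 444 of the 196221 productive rearrangements found in the spleen, or 0.226%, and comprised 175, 138 and 131 in the experiments named A, B and C. Because template counts chose the members, their presence and level in the splenic subsets, and in part in TILs, are described without a test.

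The study asked how the TCR repertoires of peripheral CX3CR1-defined CD8 T-cell subsets relate to each other and to TILs during immune checkpoint therapy. All 12 libraries came from female C57BL/6 mice that bore MC38, a murine colon adenocarcinoma, and had received anti-CTLA-4 and anti-PD-L1 antibodies, so that no untreated group exists for comparison. Each of the 3 experiments gave 1 library per splenic subset and 1 CD8 TIL library, and the letters follow the sorted codes of the labels. The labels write CX3CR1lo and CX3CR1hi where the study's text writes CX3CR1-negative and CX3CR1-positive. The study's supplement gives several mice per experiment, and the libraries were taken to be pools of them, so that a sequence found in all 3 subsets need not have come from 1 mouse or 1 clone. The libraries hold TCRβ sequences alone, and the sorted phenotypes could not be checked against marker genes.

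Productive templates numbered 18180 to 21622 in the CD27lo CX3CR1lo libraries, 49116 to 71574 in the CD27hi CX3CR1lo libraries, 50994 to 113660 in the CX3CR1hi libraries and 5893 to 20951 in the TIL libraries. A single template therefore stood for a larger share of a CD27lo CX3CR1lo library than of the other splenic libraries. Between 55.6% and 76.6% of the rearrangements in a splenic library were represented by 1 template. Membership therefore depended on depth, and 183.0 members on average were found when the splenic libraries were drawn down to 18180 productive templates each. Intervals given here are 95% Wilson intervals, the limit given for a count of 0 is 3 templates of the library, and both cover counting error only.

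A TCRβ chain is assembled in the thymus by joining a V, a D and a J gene segment. Terminal deoxynucleotidyl transferase adds untemplated N bases at the V-D and D-J junctions, so that a junction with few N bases is more easily made again in another cell or another mouse, whereas one with many is rarely repeated. CD27 is a costimulatory receptor that is lost as CD8 T cells become effectors. CX3CR1, the fractalkine receptor, is acquired during effector differentiation and marks cytotoxic CD8 T cells.

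The sequences below are the highest-ranked shared rearrangements, namely those whose lowest percentage over the 3 subsets was highest within an experiment, and are shown because they differ in their junctions. Each is the 87-base read of the deposited file, 5′ to 3′, with the N-inserted bases in capitals and the V, D and J bases in lower case.
A1, TCRBV12-02 and TCRBJ02-07: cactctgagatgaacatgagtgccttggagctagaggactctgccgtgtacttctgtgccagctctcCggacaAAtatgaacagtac
A2, TCRBV31-01 and TCRBJ02-07: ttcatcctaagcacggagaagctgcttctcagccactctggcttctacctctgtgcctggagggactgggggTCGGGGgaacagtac
B1, TCRBV12-01 and TCRBJ02-05: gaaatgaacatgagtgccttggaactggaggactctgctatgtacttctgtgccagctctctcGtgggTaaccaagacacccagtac
B2, TCRBV19-01 and TCRBJ01-06: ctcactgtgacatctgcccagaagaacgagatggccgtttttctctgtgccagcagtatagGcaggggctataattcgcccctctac
C1, TCRBV03-01 and TCRBJ02-01: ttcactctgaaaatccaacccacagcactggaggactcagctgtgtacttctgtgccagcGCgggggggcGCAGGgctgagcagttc
C2, TCRBV01-01 and TCRBJ02-01: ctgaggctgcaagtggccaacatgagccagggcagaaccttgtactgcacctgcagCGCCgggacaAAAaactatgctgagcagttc

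A second set is shown because the same sequences recurred between experiments. A11 and B1 were found in all 9 splenic libraries. A15 was also a member in experiment C, where it is C20, and B29 was also a member in experiment C, where it is C118. These sequences carry no more than 2 N bases, and A11 and B29 carry none.
A11, TCRBV13-02 and TCRBJ02-07: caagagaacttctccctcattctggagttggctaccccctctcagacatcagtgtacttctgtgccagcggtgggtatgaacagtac
A15, TCRBV05-01 and TCRBJ02-01: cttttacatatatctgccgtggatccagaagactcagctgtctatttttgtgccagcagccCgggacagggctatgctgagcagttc
B29, TCRBV01-01 and TCRBJ01-01: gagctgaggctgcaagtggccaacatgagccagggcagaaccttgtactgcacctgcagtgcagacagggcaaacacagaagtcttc

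The germline segments lie in the T-cell receptor beta locus on chromosome 6 of mm10, the build named in the submitters' processing notes, and RefSeq positions are those of GRCm38.p6, which is the same assembly. Trbv1 (TCRBV01-01) is at chr6:40891296-40891885, Trbv12-1 (TCRBV12-01) at chr6:41113567-41114067, Trbv19 (TCRBV19-01) at chr6:41178589-41179048 and Trbj2-7 (TCRBJ02-07) at chr6:41543810-41543856. Trbv31 (TCRBV31-01), at chr6:41557693-41558371, lies downstream of the J segments.

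The shared rearrangements held a large but variable part of the CX3CR1hi repertoire and a small part of the others. They comprised 37.6% (95% interval, 37.2 to 38.0) of productive CX3CR1hi templates in experiment A, 17.2% (16.8 to 17.5) in B and 7.43% (7.28 to 7.58) in C. The mean was 20.7% ± 15.4 (SD, n = 3). In the CD27lo CX3CR1lo libraries they held 3.70%, 2.08% and 1.42% of templates in A, B and C (2.40% ± 1.17). Their share was lowest in the CD27hi CX3CR1lo libraries, at 1.04%, 0.631% and 0.425% (0.70% ± 0.315). Within each experiment the CX3CR1hi share was the highest and the CD27hi CX3CR1lo share the lowest of the 3.

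The order of the experiments depended on the sequences that the rule left out. Those sequences numbered 9, 42 and 56 in experiments A, B and C and held 7.41%, 33.0% and 31.8% of CX3CR1hi templates. When they were kept, 184, 180 and 187 rearrangements were found in all 3 subsets and held 44.8% ± 5.49 of CX3CR1hi templates, 4.06% ± 0.0861 of CD27lo CX3CR1lo templates, 1.03% ± 0.176 of CD27hi CX3CR1lo templates and 35.5% ± 10.6 of TIL templates. Kept or not, their share was larger in the CX3CR1hi library than in the other splenic libraries of each experiment. The number left out followed the number of productive TIL templates, which was 5893, 12388 and 20951 in experiments A, B and C, and the part of TIL depth in the exclusion was not tested. Near the threshold, 13 members with 10 or more CX3CR1hi templates had 7 to 9 TIL templates, whereas 6 sequences just outside it had 10 to 12.

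**Figure D1:**
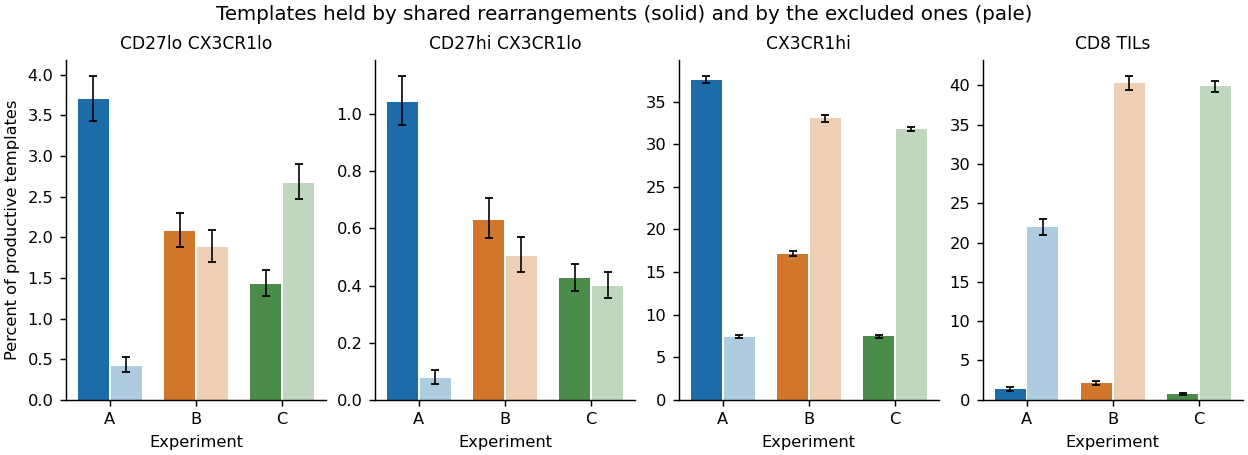
Percent of productive templates (vertical axes, different scales) held by rearrangements found in all 3 splenic subsets, by library and experiment. Solid bars are the 444 members, pale bars are the 107 sequences left out for having 10 or more templates in both TILs and CX3CR1hi cells, and error bars are 95% Wilson intervals. The solid CX3CR1hi bars fall from 37.6% in A to 7.43% in C, whereas the pale bar is lowest in A at 7.41%.

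Out-of-frame rearrangements, which encode no receptor chain and are carried on the other allele of the same cells, were also found in all 3 subsets. Without the exclusion, 0.262%, 0.275% and 0.173% of out-of-frame splenic rearrangements in experiments A, B and C were in all 3 subsets, as against 0.300%, 0.326% and 0.234% of productive ones. Under the full rule there were 134 such out-of-frame sequences among 76376. None of the 134 was found in the spleen of another experiment, beside means of 0.497% to 0.627% of out-of-frame sequences in a single subset. Their mean number of N insertions was 4.02 ± 0.149 (SD, n = 3), beside means of 3.92 to 4.02 in those of a single subset. The N insertions do not set them apart from out-of-frame sequences of a single subset. With recurrence this rare, 134 sequences are too few to show a difference in it, so no conclusion is drawn from its absence.

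Among single members, the CX3CR1hi level spanned the widest range. The median member had 27, 9.5 and 7 CX3CR1hi templates in experiments A, B and C, compared with 2, 2 and 1 in CD27lo CX3CR1lo and 2 in each CD27hi CX3CR1lo library. Member levels in CX3CR1hi cells ran from 0.000880% to 4.22% of productive templates, in CD27lo CX3CR1lo cells from 0.00462% to 0.522% and in CD27hi CX3CR1lo cells from 0.00140% to 0.0482%. Most members thus rested on very few templates outside the CX3CR1hi subset. A single template was the only support for 198 members in CD27lo CX3CR1lo cells, 211 in CD27hi CX3CR1lo cells and 70 in CX3CR1hi cells, and 39 members had 1 template in each. The 10 most abundant members made up 47.7%, 57.9% and 52.7% of all CX3CR1hi templates of the members in experiments A, B and C.

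Members differed in which subset they favored. By percent of templates, 267 of 444 members were highest in CX3CR1hi cells, 167 in CD27lo CX3CR1lo cells and 10 in CD27hi CX3CR1lo cells. The CD27lo CX3CR1lo count is raised by the smaller depth of those libraries, because 1 template there is a larger percentage. Of the 135 members with at least 3 CD27lo CX3CR1lo templates, 91 were highest in CX3CR1hi cells, 44 in CD27lo CX3CR1lo cells and 0 in CD27hi CX3CR1lo cells. Across members, levels in CX3CR1hi and CD27lo CX3CR1lo cells had a Spearman's rho of 0.44, 0.29 and 0.25 over the 175, 138 and 131 members of experiments A, B and C. Members of 1 experiment share their libraries and are tied at low counts, so these values are descriptive.

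**Figure D2:**
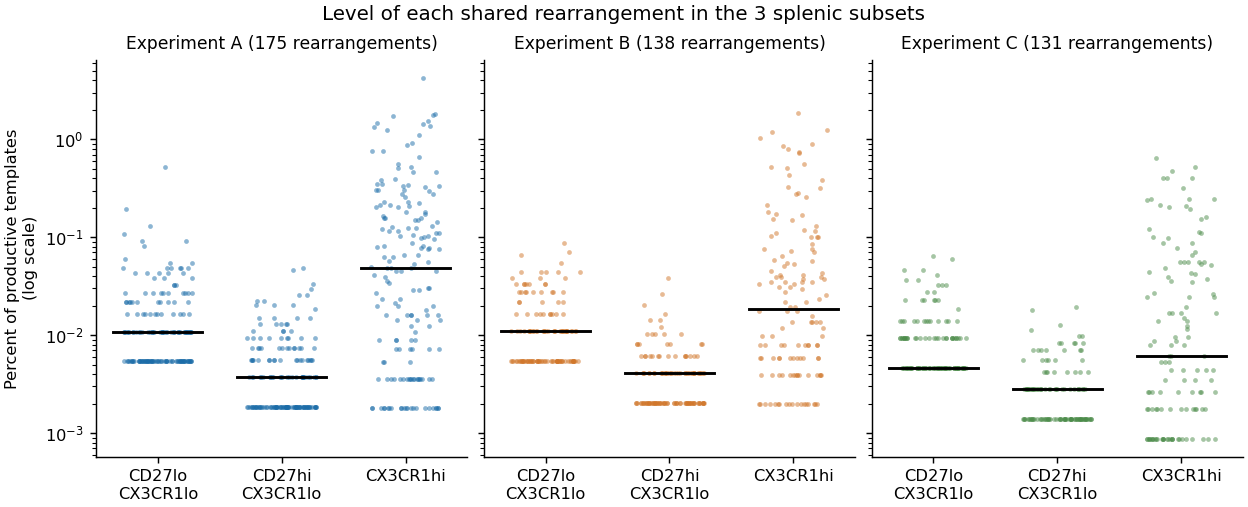
Percent of productive templates (log scale) of each shared rearrangement in the 3 splenic subsets, with 1 panel per experiment, 1 point per rearrangement and the median as a black line. The rows of points at the bottom are rearrangements with 1, 2 or 3 templates, and CX3CR1hi levels reach 4.22% in A, 1.86% in B and 0.638% in C.

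The highest-ranked members had most of their templates in CX3CR1hi cells. A1 had 9 CD27lo CX3CR1lo, 26 CD27hi CX3CR1lo and 1019 CX3CR1hi templates, or 0.0490%, 0.0482% and 1.83%, and had 0 of 5893 TIL templates, which allows up to 0.0509%. A2 had 17, 25 and 214 templates in the same order, or 0.0925%, 0.0463% and 0.384%, and was likewise not found in TILs. A1 was about equally frequent in both CX3CR1lo subsets, whereas A2 was more frequent in the CD27lo one. The 2 other rearrangements ranked highest in experiment A were A3, with 36, 18 and 508 templates and 4 in TILs, and A4, with 20, 16 and 124 and none in TILs.

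In experiment B, the members ranked first and second differed in their CX3CR1hi level. B2 had 2, 10 and 609 templates in CD27lo CX3CR1lo, CD27hi CX3CR1lo and CX3CR1hi cells, or 0.0110%, 0.0204% and 1.19%, and 2 templates in TILs. B1 had 16, 19 and 87 templates, or 0.0880%, 0.0387% and 0.171%, with 0 of 12388 in TILs, which allows up to 0.0242%. Its read encodes the amino acids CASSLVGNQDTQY. The study names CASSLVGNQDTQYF as a highly frequent amino acid sequence in TILs of each of its experiments. The count of 0 therefore holds for this nucleotide sequence only and does not show that the encoded chain was absent from TILs of experiment B. Other nucleotide sequences that encode it were not counted there. The lower-ranked B3 and B4 had 133 and 51 CX3CR1hi templates and none in TILs. In experiment C, C1 had 3, 8 and 538 templates, or 0.0139%, 0.0112% and 0.473%, and 1 template in TILs. C2 had 7, 7 and 599 templates, or 0.0324%, 0.00978% and 0.527%, and 0 of 20951 in TILs, which allows up to 0.0143%. C3 and C4 made up 0.0977% and 0.322% of CX3CR1hi templates and had none in TILs. All 12 rearrangements named by rank were highest in CX3CR1hi cells, and 3 of them had a template in TILs.

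The most abundant CX3CR1hi members, and the largest CD27lo CX3CR1lo member, were chosen after their values were seen. They were unequally represented in the other subsets. A47 (TCRBV03-01, TCRBJ02-01) had 2356 CX3CR1hi templates, or 4.22%, but 1 template in CD27lo CX3CR1lo cells and 11 in CD27hi CX3CR1lo cells. B8 (TCRBV03-01, TCRBJ01-04) had 949 CX3CR1hi templates with 13 and 4 in the CX3CR1lo subsets, and C95 (TCRBV19-01, TCRBJ02-03) had 725 with 5 and 1. None of these was found in TILs, whereas 33.7% (30 of 89) of members with 100 or more CX3CR1hi templates were. The rule had already removed sequences of that size with 10 or more TIL templates. A7 (TCRBV03-01, TCRBJ01-02), by contrast, had 96 templates in CD27lo CX3CR1lo cells, or 0.522%, and 87 in CX3CR1hi cells, or 0.156%.

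Sharing with both CX3CR1lo subsets was frequent among large CX3CR1hi rearrangements and rare among small ones. After the exclusion, 63.9%, 51.3% and 29.1% of rearrangements with 100 or more CX3CR1hi templates in experiments A, B and C were found in both other subsets, or 89 of 190 in all (46.8%, 95% interval 39.9 to 53.9). The corresponding counts were 148 of 1629 (9.09%) at 10 to 99 templates, 137 of 8526 (1.61%) at 2 to 9 templates and 70 of 13544 (0.517%) at 1 template. Of the 190 large rearrangements, 40 were found in neither CX3CR1lo subset. Among the 89 large members, the ratio of the CD27lo CX3CR1lo percentage to the CX3CR1hi percentage had a median of 0.0423, an interquartile range of 0.0257 to 0.0772 and extremes of 0.00129 and 0.616. The ratio of CD27hi CX3CR1lo to CX3CR1hi had a median of 0.0126 and extremes of 0.00219 and 0.133. The part of cells carried between sort gates in these low levels was not tested.

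The junctions of the members were compared next, since N insertions, CDR3 length and gene use were not part of the rule. Members had a mean of 3.24, 3.42 and 3.05 N insertions in experiments A, B and C (3.24 ± 0.187, SD, n = 3). Rearrangements found in exactly 2 splenic subsets had 2.44 ± 0.116 and those found in exactly 1 had 3.51 ± 0.0446. Members thus lay between the 2 other classes, above the former in 3 of 3 experiments and below the latter in 3 of 3. The planned contrast of members with the mean of both classes was 0.260 ± 0.166 bases and did not pass the test (exact permutation within experiments, two-sided p = 0.556, 0.833 after Benjamini-Hochberg adjustment over 6 contrasts). With 3 experiments and 3 classes the smallest p this test can give is 0.037. A class that lies between the others in each experiment cannot reach it, so this contrast cannot show whether members differ from either class. The same holds below for the share without N insertions, CDR3 length and recurrence. Members lay between the classes there in 3 of 3 experiments too. Against a single class an exact sign-flip test cannot go below 0.25, the value it gave for each of both comparisons. The permutation p-values rank the contrast among those given by exchanging the class labels within each of the 3 experiments, whose mice were taken to be separate. They do not measure the spread between experiments, which the SD gives.

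The number of N insertions per member ranged from 0 to 15, with a median of 3 in each experiment. No N insertion was present in 67 members, 1 or 2 in 128, 3 to 5 in 170 and 6 or more in 79. The share without N insertions was 13.7%, 10.9% and 21.4% in experiments A, B and C (15.3% ± 5.43), compared with 23.5% ± 1.72 of rearrangements in exactly 2 subsets and 8.56% ± 0.465 of those in exactly 1. The contrast was -0.725 percentage points ± 5.09 and did not pass the test (exact permutation, two-sided p = 0.963). V-D and D-J junctions contributed alike, with means of 1.67 and 1.57 inserted bases over the 444 members.

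The patterns of presence that make up the class found in exactly 2 subsets differed in N insertions. Rearrangements in both CX3CR1lo subsets but not in CX3CR1hi cells had 1.50, 1.51 and 1.45 N insertions in experiments A, B and C, and 36.6%, 39.3% and 37.0% of them had none. Those in CX3CR1hi cells and 1 CX3CR1lo subset had means of 3.28 ± 0.154 (with CD27lo CX3CR1lo) and 2.77 ± 0.170 (with CD27hi CX3CR1lo), the latter below members in 3 of 3 experiments. Members exceeded the pattern without CX3CR1hi cells by 1.75 ± 0.157 bases, in 3 of 3 experiments (exact sign-flip test, p = 0.25, the smallest it can give).

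**Figure D3:**
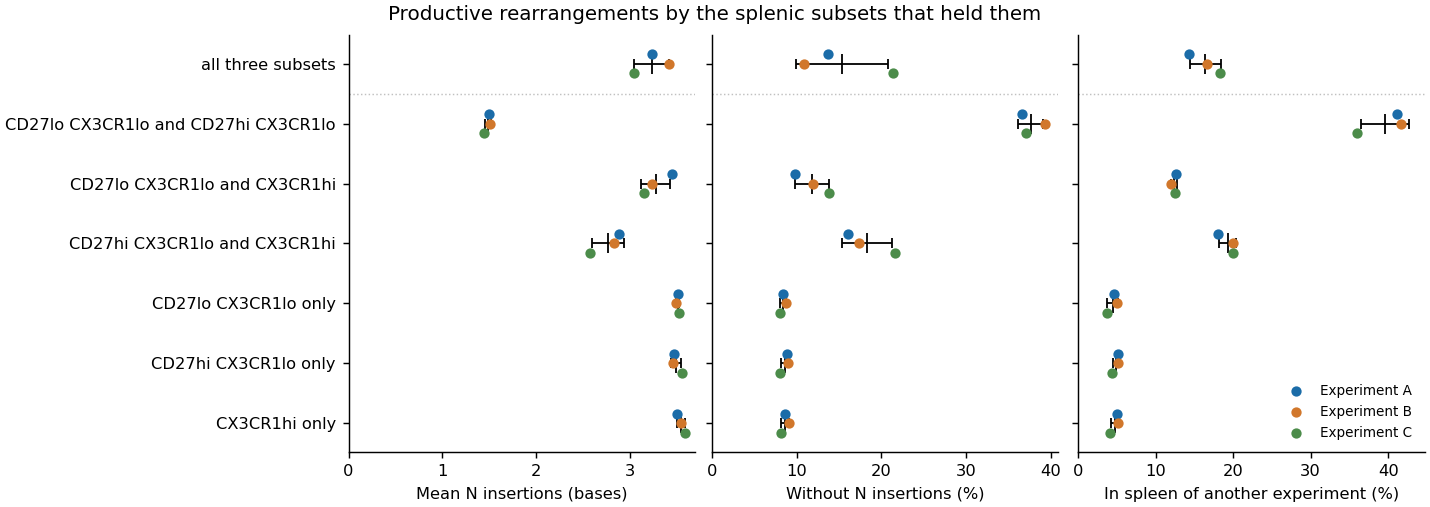
Mean N insertions, percent without N insertions and percent also found in the spleen of another experiment, for productive rearrangements grouped by the splenic subsets that held them (rows). Points are experiments, black ticks are means and whiskers are SD (n = 3). The members, in the top row, have a mean of 3.24 insertions, 15.3% without insertions and 16.4% recurrence, the patterns of a single subset lie at 4.46% to 4.91% recurrence, and the pattern of both CX3CR1lo subsets without CX3CR1hi cells stands apart at 1.49 insertions, 37.7% and 39.6%.

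Recurrence in other mice followed the same order as the junctions. Of the members, 14.3%, 16.7% and 18.3% in experiments A, B and C were also found, as the identical nucleotide sequence, in a splenic library of another experiment (16.4% ± 2.03). The share was 24.7% ± 0.725 for rearrangements in exactly 2 subsets, 39.6% ± 3.14 for those in both CX3CR1lo subsets without CX3CR1hi cells, and 4.80% ± 0.507 for those in exactly 1 subset. The contrast of members with the mean of the classes was 1.68 percentage points ± 2.48 (exact permutation, two-sided p = 0.778). Members have at least 3 splenic templates by construction, whereas a rearrangement in 1 subset may have 1. Among rearrangements with no more than 1 template per library, the contrast was -6.28 percentage points ± 9.79, the other sign. Members there still had more splenic templates than the other classes, and the part of template number in recurrence was not otherwise tested.

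The recurring members had short junctions. The 72 members found in another experiment had a mean of 1.04 N insertions, and 35 of them (48.6%) had none. The 372 members not found elsewhere had a mean of 3.66 N insertions, and 32 of them (8.60%) had none. Recurring members also had fewer CX3CR1hi templates, with a median of 3.5 as against 16, and a shorter CDR3, with a mean of 38.7 bases as against 41.7. For the 444 memberships there were 442 distinct sequences, of which 440 were members in 1 experiment, 2 in a pair of experiments and 0 in all 3.

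Recurrent sequences shown above had unequal levels in different experiments. As this nucleotide sequence, B1 had 87 CX3CR1hi templates and no TIL template in experiment B, which leaves out other sequences that encode the same CDR3. It had 1370 CX3CR1hi and 158 TIL templates in experiment A and 1733 and 354 in experiment C, and in both the rule left it out. A11 had 31 CX3CR1hi and 8 TIL templates in experiment A, but 191 and 105 in experiment B and 88 and 228 in experiment C, where it was likewise left out. A15 had 168 CX3CR1hi templates in experiment A and, as C20, 114 in experiment C, with none in TILs of either. B29 had 9 CX3CR1hi templates in experiment B and 1 in experiment C. Whether these sequences paired with the same TCRα chain was not measured.

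Many members encoded a CDR3 that was also encoded by another nucleotide sequence in the spleen of the same experiment. This held for 54.9%, 39.9% and 56.5% of members in experiments A, B and C (50.4% ± 9.17), for 49.2% ± 3.40 of rearrangements in exactly 2 subsets and for 27.1% ± 1.67 of those in exactly 1. Members exceeded the last class in 3 of 3 experiments. The contrast with the mean of both classes was 12.2 percentage points ± 7.31 (exact permutation, two-sided p = 0.222). The CDR3 of members was 41.2 ± 0.138 bases long on average and ranged from 30 to 54, compared with 40.9 ± 0.165 in exactly 2 subsets and 41.9 ± 0.0247 in exactly 1, a contrast of -0.219 ± 0.0642 (p = 0.556 by the same exact permutation).

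Over all members pooled, features of the junction moved with abundance in CX3CR1hi cells. The share without N insertions was 28.6% (20 of 70) at 1 CX3CR1hi template, 20.4% (28 of 137) at 2 to 9, 8.11% (12 of 148) at 10 to 99 and 7.87% (7 of 89) at 100 or more. The share found in another experiment was 25.7%, 20.4%, 11.5% and 10.1% in the same order. In each experiment, both shares were lower at 10 to 99 templates than at 1 template. Both fell at every step in experiment A only. Recurrence in experiment B changed little, at 16.7%, 19.6%, 14.3% and 15% over the strata. In experiment C the share without N insertions was 5.26% at 10 to 99 templates and 13.0% at 100 or more. These values are descriptive, because the strata were formed on a count that the rule used.

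The CDR3 encoded again showed another pattern. It was found for 44.3%, 45.3% and 45.3% of members with 1, 2 to 9 and 10 to 99 CX3CR1hi templates, but for 73.0% (65 of 89, 95% interval 63.0 to 81.2) of those with 100 or more. In experiments A, B and C the last share was 76.1%, 65.0% and 73.9%. When sequences at 1 mismatch from another at least 10 times as abundant, with the same V and J gene, were left out, it was 71.9%.

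**Figure D4:**
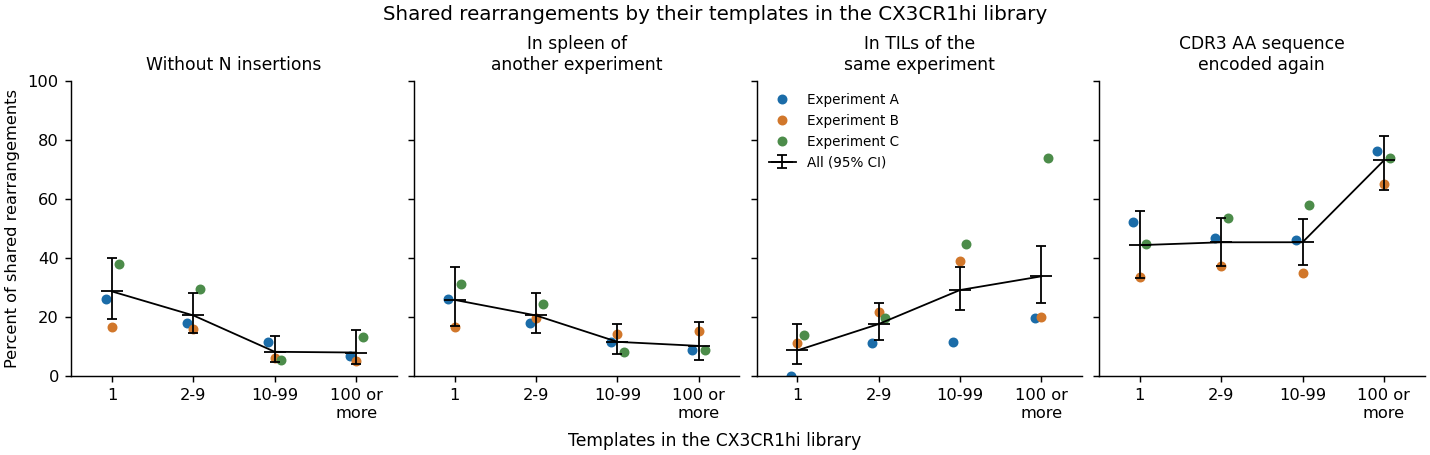
Percent of shared rearrangements (vertical axis) that had no N insertion, recurred in another experiment, were found in TILs of the same experiment or had their CDR3 AA sequence encoded again, by templates in the CX3CR1hi library (horizontal axis). Colored points are experiments, and black ticks with 95% Wilson intervals are all 444 members. The first and second panels fall from 28.6% to 7.87% and from 25.7% to 10.1%, the TIL panel rises from 8.57% to 33.7%, and the last panel rises to 73.0% in the top stratum. In the TIL panel, the strata of 10 or more CX3CR1hi templates lack the sequences with 10 or more TIL templates, which the rule removed.

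The members used 23 V genes, 13 J genes and 176 combinations of V and J genes. TCRBV19-01 was the most frequent V gene, with 45 members, followed by TCRBV03-01 with 39 and TCRBV13-02 and TCRBV01-01 with 33 each. The most frequent combination, TCRBV13-02 with TCRBJ02-07, accounted for 14 members (3.16%). No V gene differed between members and the mean of the other classes (0 of 20 tested higher and 0 lower, percent called 0 in each direction, edgeR quasi-likelihood test with Benjamini-Hochberg adjustment at 0.05). At an unadjusted p under 0.05 there were 5 V genes, and DESeq2 also called 0 after adjustment.

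The V genes with the lowest unadjusted p-values and those with the same order in each experiment are named here after their values were seen. Use by members was above both other classes in 3 of 3 experiments for 4 of the 20 V genes tested (20%) and below both for 2 (10%). TCRBV17-01 was used by 4.57%, 4.35% and 4.58% of members in experiments A, B and C, compared with a mean of 2.51% in exactly 2 subsets and 2.65% in exactly 1, a log2 ratio of 0.80 ± 0.36 (SE, edgeR adjusted p = 0.167). TCRBV01-01, the V segment farthest from the J clusters among those printed above, was used by 8.0%, 7.25% and 6.87% of members, compared with 5.51% and 4.71%, a log2 ratio of 0.55 ± 0.27 (edgeR adjusted p = 0.167). TCRBV03-01 and TCRBV19-01 also had higher use, at means of 8.75% and 10.2%, compared with 6.70% and 7.65% in exactly 2 subsets (edgeR adjusted p = 0.282 for each).

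Lower use was seen for TCRBV16-01, with 4.0%, 3.62% and 3.82% of members, as against means of 6.23% and 6.76% in the other classes, a log2 ratio of -0.76 ± 0.32 (edgeR adjusted p = 0.167). TCRBV12-01 was used by 4.0%, 6.52% and 7.63% of members, as against 9.05% and 8.36%, a log2 ratio of -0.57 ± 0.27 (edgeR adjusted p = 0.167). TCRBV13-02 was used by 7.51% ± 1.44 of members, as against 12.7% in exactly 2 subsets and 8.93% in exactly 1. When members were compared with the class in exactly 2 subsets alone, TCRBV13-02 was the only V gene to pass, with a log2 ratio of -0.77 (edgeR adjusted p = 0.0402). None of these differences passed the main contrast.

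**Figure D5:**
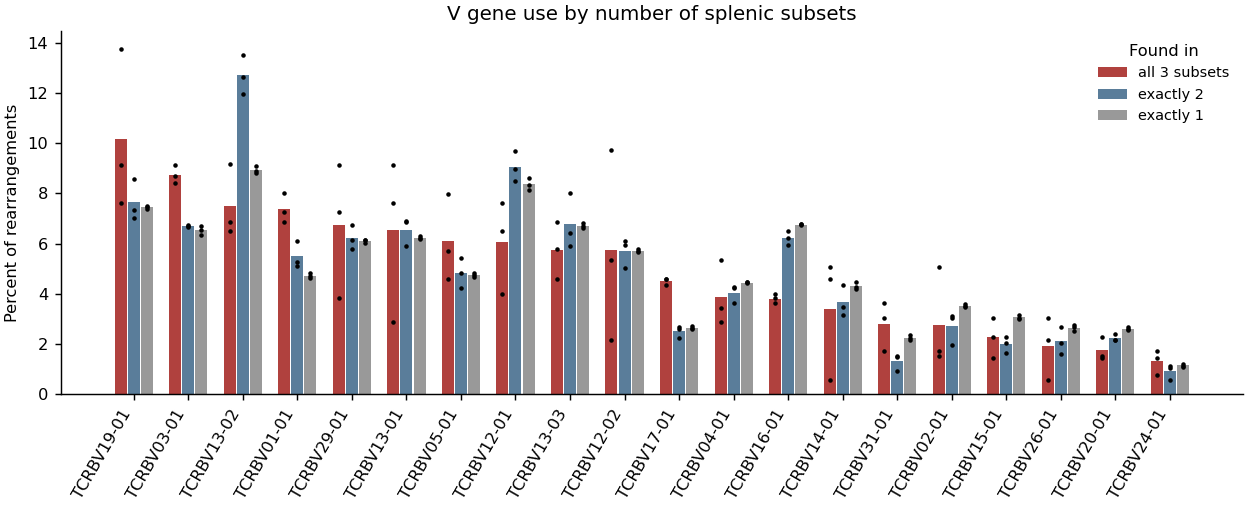
Percent of rearrangements that used each of the 20 V genes tested, for rearrangements found in all 3, exactly 2 or exactly 1 splenic subset. Bars are means and points are the 3 experiments. TCRBV17-01 and TCRBV01-01 are above both other classes in each experiment and TCRBV16-01 and TCRBV12-01 below, with no adjusted p under 0.05.

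No J gene differed either (0 of 12 higher and 0 lower, percent called 0 in each direction, edgeR, 0 at an unadjusted p under 0.05 and 0 by DESeq2). TCRBJ02-07 was the most frequent J gene, in 23.4%, 18.8% and 21.4% of members of experiments A, B and C, compared with means of 25.5% in exactly 2 subsets and 21.8% in exactly 1. Use by members was below both other classes in 3 of 3 experiments for 2 of the 12 J genes (16.7%) and above both for none (0%). These 2 were TCRBJ02-05, with a mean of 7.23% as against 9.58% and 10.4%, and TCRBJ01-04, with 4.93% as against 6.28% and 6.96% (edgeR adjusted p = 0.644 for each).

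A minority of the members was also found in TILs of their experiment, at low levels. The numbers were 21 of 175 in experiment A (12.0%, 95% interval 7.98 to 17.6), 36 of 138 in B (26.1%, 19.5 to 34.0) and 46 of 131 in C (35.1%, 27.5 to 43.6), with 24.4% ± 11.6 as the mean and SD of the 3. The order of the experiments was that of TIL depth. When every TIL library was drawn down to 5893 productive templates, an alternative chosen after seeing the data, the shares were 12.0%, 19.9% and 20.2%. Members found in TILs had a median of 2 TIL templates, and together the members held 1.32%, 2.13% and 0.759% of TIL templates.

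The rule removes sequences with 10 or more templates in both TILs and CX3CR1hi cells, so that these levels were capped for all but members with few CX3CR1hi templates. Only 4 members had 10 or more TIL templates. They were B112 (TCRBV13-03, TCRBJ02-01), with 136 TIL and 5 CX3CR1hi templates, B97 (TCRBV24-01, TCRBJ01-02), with 24 and 7, C111 (TCRBV13-02, TCRBJ02-07), with 16 and 1, and C49 (TCRBV21-01, TCRBJ02-05), with 10 and 2. B112 made up 1.10% of TIL templates and 0.00981% of CX3CR1hi templates in experiment B. The B97 read has an in-frame stop codon (tag) in its V segment, as do the other TCRBV24-01 members of experiments A and B. Its deposited status is in-frame, but as read it cannot encode a complete chain. With the excluded sequences kept, 16.3%, 43.3% and 54.5% of rearrangements in all 3 subsets were found in TILs.

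Members were set beside the other rearrangements of CX3CR1hi cells after the same exclusion, without a test because TIL and CX3CR1hi counts are part of the rule. In experiments A, B and C, 12.2%, 18.1% and 24.8% of rearrangements in CX3CR1hi and CD27lo CX3CR1lo cells were found in TILs, as were 6.67%, 16.2% and 22% of those in CX3CR1hi and CD27hi CX3CR1lo cells and 2.55%, 7.36% and 5.68% of those in CX3CR1hi cells alone. The share of members was above all 3 patterns in experiments B and C, whereas in experiment A it was 12.0%, beside 12.2% for the pattern with CD27lo CX3CR1lo cells. The difference from the mean of the 3 patterns was 4.86, 12.2 and 17.6 percentage points, or 11.6 ± 6.41 (SD, n = 3), and 22.7 percentage points without the exclusion. Rearrangements in both CX3CR1lo subsets but not in CX3CR1hi cells were rarely found in TILs, at 0.265%, 0.592% and 1.65%.

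Detection in TILs moved with the CX3CR1hi count among the members left by the rule. Among members with 1, 2 to 9, 10 to 99 and 100 or more CX3CR1hi templates, 8.57%, 17.5%, 29.1% and 33.7% were found in TILs. In experiment C the share reached 73.9% (17 of 23) in the top stratum, whereas in experiment B it was 38.8% (19 of 49) at 10 to 99 templates and 20% (4 of 20) above. At 10 or more CX3CR1hi templates the rule had removed every sequence with 10 or more TIL templates. In experiment B this took the sequences in all 3 subsets from 67 to 49 at 10 to 99 templates and from 44 to 20 above. The shares of the 2 upper strata are therefore lowered by the rule and do not show how TIL detection relates to abundance.

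Within strata of the CX3CR1hi count, members did not stand above the other patterns throughout. The difference from the mean of the 3 other patterns was 2.81 percentage points ± 5.76 at 1 template and 5.49 ± 1.12 at 2 to 9 templates. At 2 to 9 templates members were highest of the patterns in each experiment. Their shares were 11.1% in A (beside 3.58% to 10.6%), 21.6% in B (beside 11.0% to 19.5%) and 19.5% in C (beside 7.17% to 17.1%). The members counted were 5 of 45, 11 of 51 and 8 of 41. The next highest pattern, CX3CR1hi with CD27lo CX3CR1lo cells, had 11 of 104, 24 of 123 and 22 of 129. The Wilson intervals of these patterns overlapped in each experiment, so members are not set apart from that pattern. In the strata that follow, the rule had removed sequences with 10 or more TIL templates from every pattern. At 10 to 99 templates, members of experiment A were lowest of the patterns (11.5%, beside 12.8% to 19.7%), those of experiment B highest (38.8%, beside 25.5% to 35.6%) and those of experiment C within their range (44.7%, beside 37.3% to 50.8%). At 100 or more templates, members lay within the range of the other patterns in each experiment, with 19.6% beside 14.3% to 27.3% in A, 20% beside 0% to 37.5% in B and 73.9% beside 62.5% to 87.5% in C, where each of the other patterns held 3 to 24 rearrangements.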

How the data were processed

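Genomic DNA of flow-sorted splenic CD8 T-cell subsets and of CD8 TILs was amplified by the authors with the immunoSEQ kit and sequenced on a NextSeq500, and rearrangements were called on the vendor's platform with mm10 per the labels. The deposited template counts are whole numbers without normalization, 1 file per sample, and equal the deposited estimated genome counts in each row. V and J names, CDR3 lengths and N insertions were used as deposited, and the versions of the vendor's software were not given in the sources used here. PCR amplification bias between V genes can remain in such counts.

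Productive (in-frame) rearrangements were joined within experiments by nucleotide sequence, without a minimum above 1 template. Productive here is the deposited in-frame status, and not every such read need encode a receptor chain. It includes TCRBV29-01 and TCRBJ02-06, which RefSeq lists as pseudogene segments, and TCRBV24-01 reads with a stop codon before the CDR3. Percentages are of a library's productive templates. Capitals in printed sequences were set from the deposited junction positions. All 46 V and J gene names matched RefSeq symbols. Groups came from the cell type label and experiments from the code in the title, which paired the libraries. Libraries of the same experiment shared 4.01% to 9.77% of the smaller repertoire, those of different experiments 0.751% to 2.99%. The permutations and fits therefore used the experiment as a block, after the repeated-measures analysis of the study.

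Measures were averaged per experiment and class and compared by exact permutation within experiments (27 arrangements for 3 classes). A permutation test of the share found in TILs was also planned, and counts among the 6 contrasts of the adjustment, but is not used because TIL counts are part of the rule. V and J gene use was tested on the number of distinct rearrangements with edgeR 4.0.16 (quasi-likelihood, filterByExpr, library totals as size) in R 4.3.3, with DESeq2 1.42.0 as an alternative. Where edgeR sets a p-value by its Poisson bound, the SE given is the one of that bound. Python 3.11.15, numpy 2.4.6, pandas 2.3.3, scipy 1.17.1 and matplotlib 3.10.9 were used. The finding of members, the permutation contrast and the edgeR fit were tested on simulated data. Named rearrangements were the 4 per experiment with the highest lowest-percentage and those in all 9 splenic libraries, and named genes those past an adjusted p of 0.05, with exceptions stated. The members, lists and tests were chosen with earlier results of these data known. Alternatives covered the exclusion, a minimum of 2 templates, depth (20 draws), 1-mismatch neighbours, the clonotype definition, weighting, scaling, the block and leaving out each experiment.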

Additional observations from a re-analysis of the deposited data

How the results depend on the processing

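Of 104 values recomputed under alternatives, 86 kept their direction and their side of the threshold, where there is one, or stayed close. The number of members (444) was 147 with a minimum of 2 templates per subset, 183.0 at equal splenic depth, 753 with the clonotype taken as V gene, CDR3 AA sequence and J gene, and 269 to 313 when an experiment was left out, the lowest without experiment A. The sequences excluded by the rule decided the template shares, which without the exclusion were 4.06% in CD27lo CX3CR1lo, 1.03% in CD27hi CX3CR1lo, 44.8% in CX3CR1hi and 35.5% in TIL libraries. With an experiment left out, these shares were 1.75% to 2.89%, 0.528% to 0.837%, 12.3% to 27.4% (the lowest without experiment A) and 1.04% to 1.73%. The difference in the share found in TILs, 11.6 percentage points and given without a test, was 22.7 without the exclusion, 8.96 with the AA clonotype, 8.41 with TILs at equal depth, which was added after seeing the data, and 8.52 to 14.9 with an experiment left out. With 2 experiments no permutation contrast can reach the threshold, so leaving out an experiment bears on values and signs only. Contrasts that did not pass the test changed sign in a few settings. The share without N insertions was 4.05 percentage points higher in members with a minimum of 2 templates, and ranged from -3.45 to 1.59 with an experiment left out, the sign turning without experiment B. The CDR3 length contrast was 0.0236 bases when weighted by templates and 0.0461 among rearrangements with no more than 1 template per library. Among the latter, the recurrence and CDR3 encoded-again contrasts were -6.28 and -8.07 percentage points. With an experiment left out, the contrasts were 0.171 to 0.335 N insertions, -0.243 to -0.182 bases of CDR3 length, 0.389 to 2.86 percentage points for recurrence and 9.71 to 16.4 for the CDR3 encoded again. Comparison with the class in exactly 2 subsets alone called 1 V gene, and every other V or J setting, leaving out an experiment included, called 0. Without the replicate block the contrasts are the same values, 0.260 N insertions with an exact permutation p of 0.476 and 11.6 percentage points in TILs, and no call changed. The cause of each change was not tested. Depth limits detection, since 297 of 444 members rested on 1 template in at least 1 subset.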
